A study of Mus musculus with 12 samples.

Results

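The comparison of liver without the gene for YAP in its hepatocytes and liver with it, before any mitogen was given, rests on 4 of the 12 arrays of the study: 2 of KO liver and 2 of WT liver at day 0, all 14103 genes tested being compared. All mice were female, aged 8-12 weeks, and carried floxed Yap1 alleles (YAP fl/fl). The KO mice had received AAV8.TBG.PI.Cre.rBG and the WT mice AAV8.TBG.PI.eGFP.WPRE.bGH8, the same number of viral particles being injected intraperitoneally. The viral promoter, TBG, is active in hepatocytes, so other liver cells keep Yap1, and the control virus carries GFP in place of Cre. Mice of the later groups were given TCPOBOP, which activates the nuclear receptor CAR and makes hepatocytes divide, at 3 mg/kg by gavage 10 days after the virus, whereas day 0 mice had the virus alone. The other arrays are 1 pool of each genotype at day 1 and 3 arrays of each genotype at day 2. The labels number the day 0 arrays as replicates without saying that each is 1 mouse. The limma p-values thus measure a spread between samples, drawn from the replicated groups of day 0 and day 2 together. The labels give neither the hour of liver collection nor the feeding state.

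YAP is a transcriptional co-activator that the Hippo kinase cascade keeps out of the nucleus, and with the TEAD factors it drives growth and matrix genes such as Ccn1, Ccn2 and Ankrd1. In the quiescent adult liver most hepatocytes hold little active YAP, and biliary and mesenchymal cells hold more. Liver is also a tissue of strong daily and feeding rhythms: insulin turns down Igfbp1 and G6pc through FoxO1, fasting turns them up, and the clock factors CLOCK and BMAL1 drive Dbp, Tef and the Nr1d genes.

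Array signals are MAS5 intensities, and differences are KO minus WT on the scale of log2 of the signal plus 16, given with the standard error of the fit. A gene is called where its Benjamini-Hochberg adjusted p over all genes, from limma, is under 0.05. The liver label was borne out by the hepatocyte genes, among which Alb read 66351 and 61762 in WT and 90511 and 77460 in KO. The KO arrays were less alike than the WT arrays: Spearman's rho over all probe sets was 0.930 between the WT arrays and 0.892 between the KO arrays, below the 0.900 to 0.918 of each KO array with each WT array. The KO arrays also had a wider signal range, with highest signals of 102372 and 88576 against 73118 and 71165. The spiked-in bacteriophage cre control moved the same way, at 26637 and 24438 on the KO arrays and 17491 and 18617 on the WT arrays of day 0. At day 2 it ran the other way, at 12457, 12508 and 14874 in KO and 29274, 29887 and 29721 in WT. The KO virus also carries Cre, and whether the control probes read it was not tested. The median difference over all genes was -0.03, but over the 166 genes with a mean log2 signal above 14 it was 0.20, and -0.03 after quantile normalization.

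At day 0 few genes were called between the genotypes. Of 14103 genes, 24 were called (0.170%), of which 9 were higher in KO (0.0638%) and 15 lower (0.106%). In KO the gene for the secreted growth factor binding protein Igfbp1 and the gluconeogenic gene G6pc were higher, and the clock-driven genes Dbp, Tef and Nr1d2 were lower. The other genes called higher were Plk3, Samd1, E2f8, Nudt6, Tsc22d3, Slco1a1 and Hhex, and those called lower were Tns2, Zfp92, Sema3f, Angptl8, Gypc, Mcm4, Orm3, Twsg1, Tk1, Arrdc3, Gprc5a and Serpina6. At an unadjusted p under 0.05 there were 1152 genes (8.17%), 524 higher (3.72%) and 628 lower (4.45%). The 2 KO and 2 WT arrays did not overlap for 5016 genes (35.6%), with KO higher for 2335 (16.6%) and lower for 2681 (19.0%). The arrays of all 24 called genes stood apart, and 23 of them differed by more than 1 on the log2 scale. With 2 arrays a group an exact permutation test cannot go below p = 0.333, and the limma calls draw their spread from the 10 arrays of replicated groups, day 2 included, since a pool of 1 array adds none: a fit of the 4 day 0 arrays alone called 0 genes, with 792 at an unadjusted p under 0.05. When each day 0 array was left out in turn, which leaves 1 array in a group, the calls depended strongly on the array left out. All 24 genes kept their direction, as was fixed in advance, since their 2 KO and 2 WT arrays did not overlap.

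**Figure D1:**
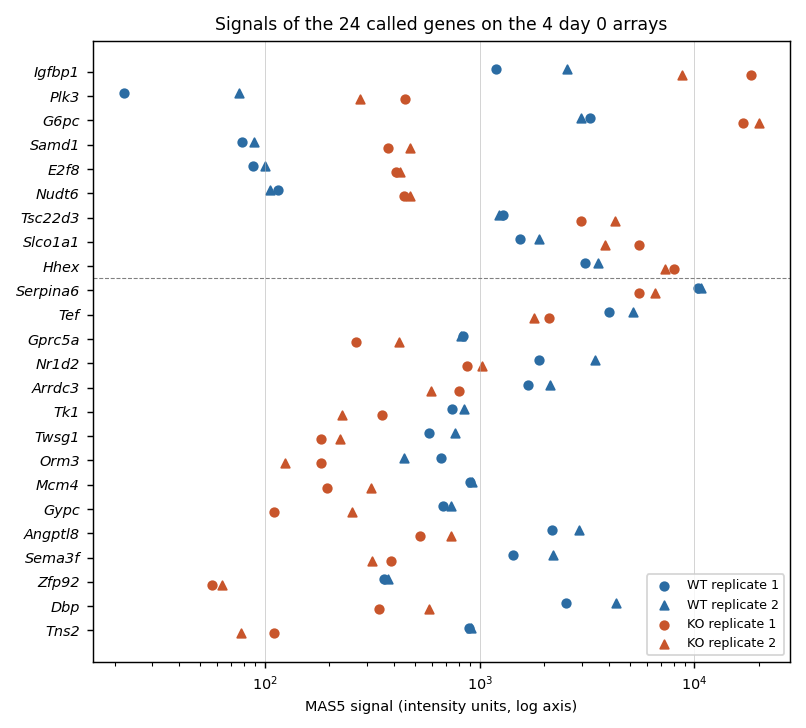
MAS5 signal (log axis) of the 24 called genes on each of the 4 day 0 arrays, blue for WT and orange for KO, with circles for replicate 1 and triangles for replicate 2. The dashed line separates the 9 genes higher in KO from the 15 lower, and in no gene do the WT and KO points overlap.

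**Figure D2:**
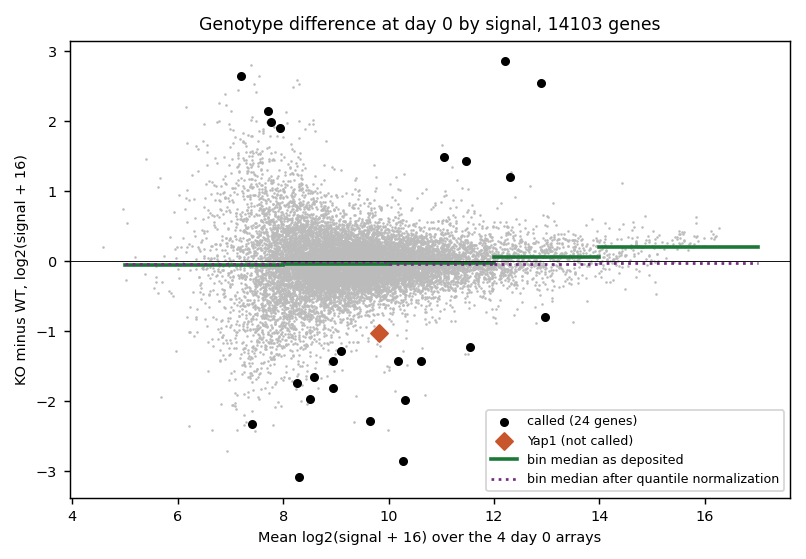
KO minus WT difference at day 0 against the mean log2 signal of the 14103 genes tested, with called genes in black and Yap1 as a diamond. The solid lines are the medians of the deposited values in 5 signal ranges, which reach 0.20 above a log2 signal of 14, and the dotted lines are those after quantile normalization, -0.03 in that range.

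Yap1, the targeted gene, read 1234 and 1293 in WT and 631.5 and 595.7 in KO, so the genotypes did not overlap. The difference was -1.02 ± 0.20, a signal 2.03-fold lower, and it was not called (limma adjusted p = 0.0914, exact permutation p = 0.333 for 2 against 2 arrays, two-sided). A dimmer probe set of Yap1 overlapped, at 389.3 and 82.9 in WT and 103.2 and 93.7 in KO. Where the probes lie relative to the floxed exons was not examined, and in bulk liver less RNA per cell and fewer cells with the RNA cannot be told apart. The difference was -1.12 between the day 1 pools, and at day 2 it was -0.92 and was called (adjusted p = 0.00844).

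The known targets of YAP and its paralog TAZ gave no call at day 0. Of 28 listed targets 23 were measured, 0 were called and 2 had an unadjusted p under 0.05 in limma. Of all genes 0.170% and 8.17% did so, shares close to those of the list. The median was -0.13 against -0.03 over all genes. Without KO replicate 1 that median was 0.03. The arrays stood apart upward for 4 targets and downward for 7, where 16.6% and 19.0% of all genes did so. Ccn2, a matricellular growth factor, read 215.6 and 237.2 in WT and 331.5 and 484.0 in KO (0.78 ± 0.40, adjusted p = 0.648). Ccn1, its relative, read 432.1 and 232.2 in WT and 505.9 and 385.9 in KO on its brightest probe set (0.46 ± 0.36, adjusted p = 0.808), and its 3 other kept probe sets differed by -1.08, -0.35 and 0.13. Ankrd1 overlapped between the genotypes, at 125.0 and 374.0 against 262.2 and 80.4. The lowest values in the list were those of Gadd45a, a growth arrest gene (-1.70 ± 0.35, adjusted p = 0.112), and Amotl2, an angiomotin that binds YAP (-0.93 ± 0.26, adjusted p = 0.300). Of 19 Hippo pathway genes measured 0 were called, and Wwtr1, which encodes TAZ, read 610.1 and 291.1 in WT and 584.4 and 714.4 in KO (0.59 ± 0.29, adjusted p = 0.641).

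Igfbp1 and G6pc, both known to be repressed by insulin, were called higher, and the insulin-induced Angptl8 was called lower. Igfbp1, which binds insulin-like growth factors in plasma, read 1188 and 2555 in WT and 18268 and 8793 in KO. The lower KO array was still more than the higher WT array, and the difference was 2.85 ± 0.38 (7.21-fold, adjusted p = 0.0196). The call was lost without WT replicate 1 (2.30, adjusted p = 0.0910). G6pc, the catalytic subunit of glucose-6-phosphatase that releases glucose from hepatocytes, read 3281 and 2979 in WT and 16744 and 19908 in KO. Both KO arrays lay far above both WT arrays, by 2.54 ± 0.33 (5.82-fold, adjusted p = 0.0196), and the adjusted p was 0.0646 without WT replicate 1, 0.125 without WT replicate 2 and 0.0572 without KO replicate 2. Angptl8, a liver-secreted protein induced by insulin and feeding that restrains lipoprotein lipase, read 2172 and 2891 in WT and 526.3 and 733.9 in KO (-1.98 ± 0.23, 3.96-fold lower, adjusted p = 0.0117), with a call lost without WT replicate 2 (-1.78, adjusted p = 0.0878).

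Most other genes of these pathways were not called, as was true of most genes tested (0.170% called). Of 18 measured genes of glucose production and glycolysis, 1 was called higher (G6pc) and 0 lower, with a median of 0.03. At an unadjusted p under 0.05 in limma, 3 were higher and 1 lower, where 3.72% and 4.45% of all genes were. Pck1, the enzyme that commits oxaloacetate to glucose synthesis, overlapped between the genotypes, at 4935 and 9026 in WT and 8437 and 16726 in KO (0.83 ± 0.37, adjusted p = 0.604). Slc2a2, the hepatic glucose transporter, read 8737 and 10471 in WT and 6852 and 5657 in KO (-0.62 ± 0.24, adjusted p = 0.512). Of 24 measured fasting and FoxO target genes, 1 was called higher (Igfbp1) and 0 lower, 4 were higher and 3 lower at an unadjusted p under 0.05, and the median was 0.13. Among the uncalled members of that list Angptl4, a fasting-induced inhibitor of lipoprotein lipase, read 1086 and 1936 in WT and 3900 and 3555 in KO (1.35 ± 0.35, adjusted p = 0.239). Lpin1, a fasting-responsive regulator of fat oxidation, differed by 0.92 ± 0.30 (adjusted p = 0.398) and Fgf21, a fasting hormone, by 0.94 ± 0.49 (adjusted p = 0.651). Bcl6, a repressor that is also a FoxO target, lay lower at 253.2 and 73.9 in KO against 399.9 and 568.7 in WT (-1.66 ± 0.43, adjusted p = 0.255). Bcl6 was called without KO replicate 1 (-2.46, adjusted p = 0.0134) and differed by -0.87 without KO replicate 2.

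The upstream sequences of Igfbp1 and G6pc are shown because both genes were called higher and are textbook targets of the insulin response element, whose core is CAAAACA. They are the 250 bases before each gene's start from the RefSeq promoter table (GRCm38.p6), chr11:7197537-7197786 for Igfbp1 and chr11:101367466-101367715 for G6pc, both on the plus strand, and the capitals mark CAAAACA or its reverse complement TGTTTTG.
Igfbp1: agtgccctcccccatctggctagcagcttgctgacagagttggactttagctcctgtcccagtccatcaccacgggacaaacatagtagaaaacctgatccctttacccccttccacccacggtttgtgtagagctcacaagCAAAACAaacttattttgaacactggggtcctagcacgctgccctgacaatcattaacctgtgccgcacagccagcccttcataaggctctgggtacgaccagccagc
G6pc: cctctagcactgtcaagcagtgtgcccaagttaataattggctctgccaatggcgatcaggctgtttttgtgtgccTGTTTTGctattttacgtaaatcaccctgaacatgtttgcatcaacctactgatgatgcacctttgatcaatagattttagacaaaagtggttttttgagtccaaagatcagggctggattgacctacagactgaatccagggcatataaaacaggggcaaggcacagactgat
The motif starts 108 bases before the start of Igfbp1 and, on the opposite strand, 174 bases before that of G6pc. It was present on either strand in 3 of the 18 called genes with a listed promoter (Dbp, G6pc and Igfbp1), in 528 of the 11294 tested genes with one (4.68%) and in 5.56% of all 32851 windows of that length. The motif was searched because Igfbp1 and G6pc were called and are its textbook targets, so their matches were favoured by that choice. The shares of called and tested genes thus cannot be compared. A match of letters is a description and not evidence of binding.

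The clock-driven genes Dbp, Tef and Nr1d2 were 3 of the 15 genes called lower. Dbp, a transcription factor of the PAR bZIP family and a direct output of the clock, read 2530 and 4319 in WT and 341.1 and 582.0 in KO. Every KO value was far below every WT value, by 2.85 on the log2 scale (-2.85 ± 0.32, 7.19-fold lower, adjusted p = 0.0117), and a separate probe set showed -4.06. The call was lost without WT replicate 2 (-2.46, adjusted p = 0.0753). Tef, a factor of the same family, read 3988 and 5155 in WT and 2104 and 1783 in KO (-1.22 ± 0.19, 2.33-fold lower, adjusted p = 0.0330). Its adjusted p was 0.0624 without WT replicate 1, 0.247 without WT replicate 2 and 0.0886 without KO replicate 2. A dimmer kept probe set of Tef overlapped, at 155.4 and 292.7 in WT and 179.5 and 124.4 in KO (-0.47). Tef was not called with its kept probe sets averaged. Nr1d2, which encodes the clock repressor REV-ERB beta, read 1892 and 3456 in WT and 871.0 and 1022 in KO (-1.42 ± 0.23, 2.68-fold lower, adjusted p = 0.0365). A dimmer probe set of Nr1d2 differed by -0.79, and the call was lost without WT replicate 2 (adjusted p = 0.175), KO replicate 1 (0.0647) or KO replicate 2 (0.0630).

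The other clock genes did not pass the test, as was true of most genes tested (0.170% called). Of 13 core clock genes measured, 0 were called higher and 1 lower (Nr1d2), 5 had an unadjusted p under 0.05 with KO lower (4.45% of all genes did), and the median was -0.08. That median was not stable: it was 0.24 with probe sets averaged, -0.64 with the stricter filter, -0.31 without WT replicate 1, -0.21 without WT replicate 2, -0.02 without KO replicate 1 and -0.31 without KO replicate 2. Nr1d1, which encodes REV-ERB alpha, read 2058 and 1808 in WT and 603.8 and 1007 in KO (-1.29 ± 0.23, adjusted p = 0.0703), and without KO replicate 2 it was called (-1.65, adjusted p = 0.0266). Bhlhe40, a repressor driven by the clock, read 1404 and 3161 in WT and 414.1 and 779.8 in KO (-1.86 ± 0.38, adjusted p = 0.107), and was called without WT replicate 1 (-2.44, adjusted p = 0.0480). Per2, a subunit of the repressing complex, differed by -1.71 ± 0.43 (adjusted p = 0.223) and Per3 by -0.68 ± 0.26 (adjusted p = 0.511). Per1 overlapped, at 176.7 and 504.1 in WT and 238.7 and 532.2 in KO. On the activating side Arntl, which encodes BMAL1, read 1310 and 1092 in WT and 1055 and 1211 in KO on its brightest probe set (-0.08 ± 0.23) and overlapped. As the mean of its kept probe sets Arntl differed by 1.36 (limma adjusted p = 0.307), so its probe sets disagreed. Clock read 345.0 and 300.3 in WT and 426.9 and 717.0 in KO (0.75 ± 0.39, adjusted p = 0.651), and Npas2, a paralog of Clock, 55.3 and 120.1 in WT and 271.3 and 282.5 in KO (1.57 ± 0.94, adjusted p = 0.697). Of 15 clock output genes measured, 0 were called higher and 2 lower (Dbp and Tef), with a median of -0.14. Among the rest of that list Usp2, a ubiquitin protease, differed by -1.93 ± 0.56 (adjusted p = 0.326) and Wee1, a kinase that holds back mitosis, by -1.82 ± 0.46 (adjusted p = 0.235). Both were called without KO replicate 2 (-2.99 and -2.57, adjusted p = 0.0278 and 0.0473).

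One of the Tef windows in the RefSeq table is shown because Tef is the called clock gene whose upstream sequence holds the E-box CACGTG, the letters that CLOCK and BMAL1 bind. It covers 250 bases before a start of the gene, chr15:81802423-81802672 on the plus strand (RefSeq, GRCm38.p6), and the capitals mark the E-box, which reads the same on both strands.
Tef: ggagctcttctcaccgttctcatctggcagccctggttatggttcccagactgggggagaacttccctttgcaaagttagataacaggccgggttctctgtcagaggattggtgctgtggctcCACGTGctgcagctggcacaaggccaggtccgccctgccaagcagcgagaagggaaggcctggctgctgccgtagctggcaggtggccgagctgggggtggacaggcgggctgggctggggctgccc
The motif starts 127 bases before this start, and a window at another start, chr15:81811164-81811413, holds the same letters 138 bases before it. It was present in 1 of the 18 called genes with a listed promoter and in 9.32% of the 11294 tested genes with one. The TEAD core GGAATG, searched on both strands, was present in 2 of those 18 genes, Nr1d2 and Zfp92, against 13.2% of tested genes.

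Tsc22d3 and Serpina6, which both have a known tie to glucocorticoids, were called in opposite directions. Tsc22d3, the glucocorticoid-induced leucine zipper, read 1285 and 1233 in WT and 2973 and 4247 in KO (1.49 ± 0.24, 2.80-fold higher, adjusted p = 0.0330). Its 3 other kept probe sets differed by 1.00, 0.62 and 0.07, and the adjusted p was 0.113 without WT replicate 1, 0.211 without WT replicate 2 and 0.107 without KO replicate 2. Serpina6, the corticosteroid-binding globulin of plasma, read 10362 and 10682 in WT and 5519 and 6567 in KO (-0.80 ± 0.13, 1.75-fold lower, adjusted p = 0.0374), with a call lost without either WT array (adjusted p = 0.133 and 0.247). Of 19 glucocorticoid response genes measured, 1 was called higher (Tsc22d3) and 0 lower, where 0.0638% and 0.106% of all genes were. The list's median was 0.15, and 0.07 after quantile normalization. Its uncalled members lay on both sides: Errfi1, a feedback inhibitor of the EGF receptor, read 11369 and 19692 in WT and 40694 and 25863 in KO (1.12 ± 0.35, adjusted p = 0.386), and Sgk1, a kinase, differed by 0.80 ± 0.29 (adjusted p = 0.485), whereas the metallothionein Mt2 differed by -0.81 ± 0.30 (adjusted p = 0.506) and the phosphatase gene Dusp1 by -0.89 ± 0.37 (adjusted p = 0.567). Without WT replicate 2, Mt2 differed by -0.26 and Dusp1 by -0.33.

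Immediate early genes, which respond to stress and growth signals within minutes, had the lowest median of the 46 lists, -0.60 against -0.03 over all genes. Of 18 measured 0 were called, where 0.170% of all genes were. The arrays stood apart with KO lower for 7 of the 18 and with KO higher for 0, where 19.0% and 16.6% of all genes did so. Zfp36, which shortens the life of cytokine RNA, read 3341 and 2923 in WT and 1916 and 1543 in KO (-0.86 ± 0.16, adjusted p = 0.0758), and was called without KO replicate 1 (-1.01, adjusted p = 0.0241). Egr1 ranged from 872.9 to 3431 within WT and read 988.2 and 357.9 in KO (-1.51 ± 0.60, adjusted p = 0.545). Atf3 read 291.9 and 328.6 in WT and 38.3 and 181.1 in KO (-1.65 ± 0.69, adjusted p = 0.568). The list's median was -0.32 without WT replicate 2 and -0.67 without WT replicate 1.

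**Figure D3:**
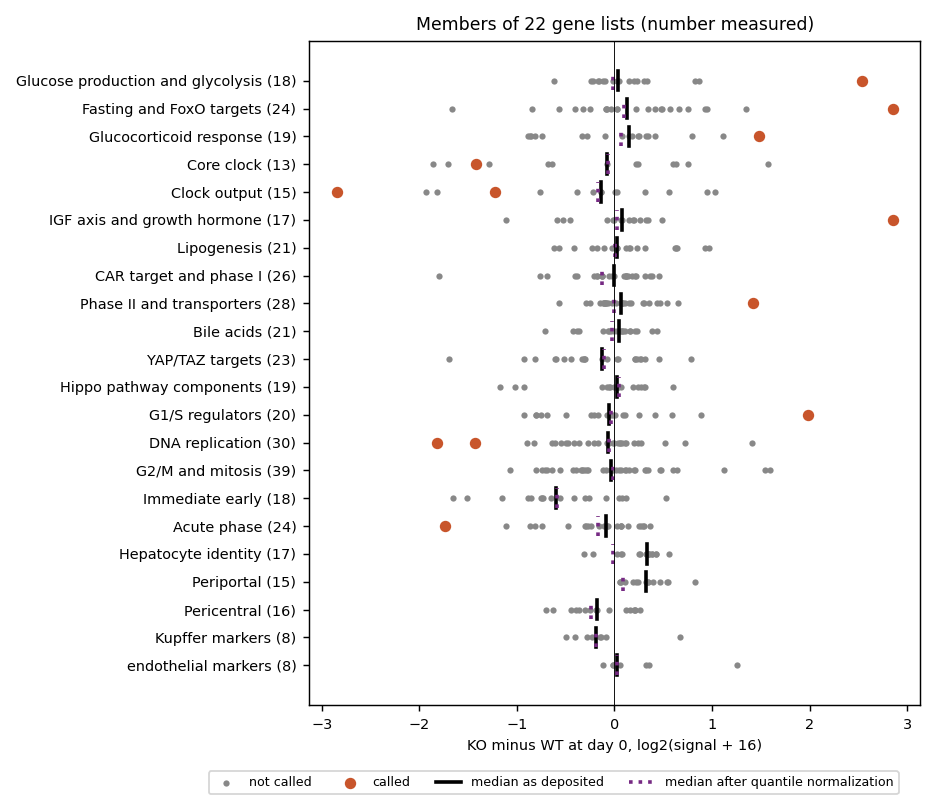
KO minus WT difference at day 0 of each measured member of 22 gene lists, called members in orange, with the median of the deposited values (solid bar) and after quantile normalization (dotted bar). The called members have the highest values of the glucose, fasting and glucocorticoid lists, Dbp the lowest of the clock output list, the immediate early median lies at -0.60, and the hepatocyte identity median moves from 0.33 to -0.01.

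Genes of the cell cycle were called in both directions. Mcm4, a subunit of the replicative helicase, read 901.8 and 917.8 in WT and 195.9 and 311.0 in KO (-1.81 ± 0.28, 3.52-fold lower, adjusted p = 0.0330). A dimmer probe set of Mcm4 differed by 0.20, and the call was lost without WT replicate 1 (adjusted p = 0.113), WT replicate 2 (0.183) or KO replicate 1 (0.0527). Tk1, the thymidine kinase of S phase, read 741.4 and 850.0 in WT and 353.2 and 228.0 in KO (-1.43 ± 0.24, 2.70-fold lower, adjusted p = 0.0374), and without single arrays its adjusted p was 0.113 (WT replicate 1), 0.253 (WT replicate 2) and 0.110 (KO replicate 2). E2f8, an atypical E2F that represses cell cycle genes and promotes polyploidy in hepatocytes, was higher, at 88.4 and 100.3 in WT and 409.4 and 428.3 in KO (1.98 ± 0.31, 3.95-fold, adjusted p = 0.0330). In WT these signals are dim, below the array medians of 252.7 and 266.2, and the adjusted p was 0.113, 0.159 and 0.0844 without WT replicate 1, WT replicate 2 and KO replicate 2. Plk3, a stress-responsive polo-like kinase, read 22.2 and 75.5 in WT and 447.8 and 277.4 in KO (2.64 ± 0.40, adjusted p = 0.0330), a difference whose size depends on the added 16. Its call was lost without WT replicate 1 (2.01, adjusted p = 0.0984) or KO replicate 1 (2.31, adjusted p = 0.0551).

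Most members of the cell cycle lists were not called, as was true of all genes tested (0.170% called). Of 30 DNA replication genes measured, 0 were called higher and 2 lower (Mcm4 and Tk1), with a median of -0.06. Of 20 G1/S regulators 1 was called higher (E2f8) and 0 lower, with a median of -0.05, and of 39 G2/M and mitosis genes 0 were called, with a median of -0.03. Ccnd1, the cyclin that carries growth signals into the cell cycle, read 5446 and 5154 in WT and 3603 and 2546 in KO (-0.80 ± 0.18, adjusted p = 0.163), and was called without KO replicate 1 (-1.05, adjusted p = 0.0228). Cdkn1a, the inhibitor p21, read 715.0 and 519.9 in WT and 1312 and 826.3 in KO (0.76 ± 0.23, adjusted p = 0.361), but as the mean of its kept probe sets it was called higher (2.15, adjusted p = 0.0179). Trp53inp1, a p53-induced nuclear protein, read 1151 and 1155 in WT and 2563 and 5249 in KO (1.66 ± 0.31, adjusted p = 0.0881), and was called without KO replicate 1 (2.17, adjusted p = 0.0110). Of the p53 targets, 0 of 14 measured were called and the median was 0.26.

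No drug metabolism gene of the CAR target list was called before TCPOBOP. Of 26 CAR target and phase I genes measured, 0 were called (0.170% of all genes were), with a median of -0.01. Cyp2b10, the classical CAR target, read 1583 and 1719 in WT and 1771 and 1867 in KO (0.14 ± 0.12, adjusted p = 0.835, and -0.01 under cyclic loess normalization). Nr1i3, the gene for CAR, read 3587 and 2519 in WT and 2871 and 2630 in KO (-0.13 ± 0.17, adjusted p = 0.907) and overlapped. Of 28 phase II and transporter genes 1 was called higher and 0 lower. That gene, Slco1a1, encodes an uptake carrier of organic anions that is known to be higher in male liver, and it read 1550 and 1882 in WT and 5547 and 3832 in KO (1.42 ± 0.23, 2.68-fold, adjusted p = 0.0330). A dimmer probe set agreed in direction (2.35), and the call was lost without KO replicate 1 (1.16, adjusted p = 0.0647), WT replicate 1 (0.179) or WT replicate 2 (0.150).

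Of 14 measured genes with a known sex bias in liver, 1 was called higher (Slco1a1) and 0 lower. At an unadjusted p under 0.05 in limma, 2 were higher and 5 lower, where 3.72% and 4.45% of all genes were. The arrays stood apart with KO higher for 4 and lower for 6, and the median was -0.19. The list mixes male-biased and female-biased genes, so these counts give no direction of sex bias, and the members named next do not stand for the list. Cyp2d9, a male-biased cytochrome, read 686.6 and 941.5 in WT and 2211 and 1671 in KO (1.24 ± 0.25, adjusted p = 0.0941). Cyp3a44, a female-biased cytochrome, read 410.7 and 381.5 in WT and 79.7 and 130.4 in KO (-1.80 ± 0.33, adjusted p = 0.0779). Probes of Cyp2d and Cyp3a genes can read near-identical family members. Of 21 bile acid genes 0 were called (0.170% of all genes were). Cyp7a1, the rate-limiting enzyme of bile acid synthesis, overlapped at 10850 and 4340 in WT and 5962 and 4612 in KO (-0.39 ± 0.47). Nr0b2, the repressor SHP, read 2557 and 2592 in WT and 1697 and 1445 in KO (-0.71 ± 0.21, adjusted p = 0.326).

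The remaining called genes belong to several functions. Hhex, a homeobox factor needed for liver formation, read 3111 and 3541 in WT and 8059 and 7257 in KO (1.20 ± 0.15, 2.30-fold, adjusted p = 0.0117), with a call lost without WT replicate 1 (1.11, adjusted p = 0.0646). Orm3, an acute phase glycoprotein whose probes can read its paralogs, read 664.0 and 442.5 in WT and 183.0 and 124.5 in KO (-1.74 ± 0.21, 3.34-fold lower, adjusted p = 0.0117). It was the 1 called gene of 24 acute phase genes measured, whose median was -0.09, where 0.170% of all genes were called. Tns2, a focal adhesion protein of the tensin family, had the largest called difference, from 894.6 and 910.9 in WT to 111.0 and 77.2 in KO (-3.08 ± 0.43, 8.44-fold lower, adjusted p = 0.0234). Its adjusted p was 0.107, 0.164 and 0.0551 without WT replicate 1, WT replicate 2 and KO replicate 2.

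Of the others called lower, Sema3f, a secreted guidance factor, read 1424 and 2185 in WT and 387.6 and 315.4 in KO (-2.28 ± 0.31), Arrdc3, an arrestin-like adaptor, 1676 and 2129 against 805.1 and 594.5 (-1.43 ± 0.23), and Twsg1, a secreted regulator of BMP signals, 581.2 and 767.4 against 181.9 and 224.5 (-1.65 ± 0.27). Another probe set of Sema3f, below the filter, differed by 1.39, and the 3 other kept probe sets of Twsg1 differed by 0.10, 0.07 and -0.47, so the probes of these genes disagreed. Gypc, the red cell membrane protein glycophorin C that other cells also make, read 677.6 and 735.8 against 110.1 and 255.5 (-1.96 ± 0.31), and Gprc5a, a retinoic acid-induced receptor, 841.0 and 822.4 against 264.8 and 420.2 (-1.28 ± 0.20). Zfp92, a zinc finger gene, read 359.5 and 373.0 against 56.8 and 63.3 (-2.33 ± 0.34). Among those called higher, Samd1, a chromatin protein, read 78.2 and 89.0 against 375.2 and 473.3 (2.14 ± 0.31), and Nudt6, a nudix hydrolase, 115.7 and 106.1 against 443.7 and 476.2 (1.91 ± 0.30), while a second probe set of Nudt6 differed by -0.18. The WT signals of Samd1 and Nudt6 are dim, below the WT array medians of 252.7 and 266.2. The KO signals of Zfp92, Twsg1 and Gypc lay below the KO array medians of 244.7 and 269.0. Adjusted p for these 8 genes lay between 0.0196 and 0.0345 in limma, and each call was lost without 2 or more of the single arrays, with adjusted p of up to 0.253. Of the 24 genes, 16 have 1 kept probe set. The other 8 have 12 further kept probe sets, of which 8 lay in the called direction and 4 (of Mcm4, Nudt6 and Twsg1) in the opposite one.

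Just outside the threshold stood Pam16, a part of the mitochondrial protein import motor (1.46 ± 0.25, adjusted p = 0.0511), Eef1b2, a translation elongation factor (0.88 ± 0.15, 0.0567), Manf, a secreted protein of the endoplasmic reticulum (0.95 ± 0.17, 0.0647), Spats2 (-1.66 ± 0.30, 0.0653) and Ranbp2, a nuclear pore protein (-1.49 ± 0.27, 0.0680). Pam16 and Ranbp2 were called without KO replicate 1 (adjusted p = 0.0391 and 0.0110) and Eef1b2 without KO replicate 2 (0.0491). Manf is 1 of 20 unfolded protein response genes measured, of which 0 were called (0.170% of all genes were) and whose median was 0.15.

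Markers of cell types gave no called gene, where 0.170% of all genes tested were called. The 7 measured hepatocyte markers had a median of 0.33 and summed to 307187 and 315113 in WT and 425036 and 353114 in KO, but after quantile normalization the median was -0.01, as was that of the 17 hepatocyte identity genes measured. Alb itself differed by 0.39 ± 0.16 as deposited and by -0.01 after quantile normalization. The 8 Kupffer cell markers had a median of -0.19 both as deposited and after quantile normalization, and -0.32 with probe sets averaged. They summed to 15022 and 14145 in WT and 12189 and 12088 in KO. The arrays of 4 stood apart with KO lower and of 0 with KO higher, where 19.0% and 16.6% of all genes did so. The lowest difference among the Kupffer cell markers was that of Cd5l, a macrophage-secreted protein (-0.49 ± 0.27, adjusted p = 0.680). The part of these markers in the called differences was not tested. The 8 endothelial markers had a median of 0.03, and the 5 lymphocyte markers measured had a median of 0.25. The 5 pancreas markers measured had a median of -0.30, with 3 standing apart with KO lower, and summed to 6241 and 4909 in WT and 4584 and 4825 in KO.

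Most of the genes called at day 0 were not called 2 days after TCPOBOP. At day 2, 1303 genes were called between the genotypes (9.24%), and of the 24 genes called at day 0, 16 had the same sign and 8 the opposite sign at day 2. Of the 24, 4 were called at day 2 in the same direction: Slco1a1 (1.22, adjusted p = 0.00449), Tsc22d3 (0.72, 0.0401), Tk1 (-1.63, 0.00169) and Tns2 (-1.53, 0.0221). None was called in the opposite direction. The median size of the 24 differences was 1.86 at day 0 and 0.32 at day 2, where the median over all genes was 0.215 and 0.323. The 24 genes were chosen by their day 0 values, so this contrast is a description. The difference between the days was called for 445 genes (3.16%). It was called for 17 of the 24, but these were chosen by the same day 0 values, which favours such calls. The 2 shares cannot be compared. Dbp, for example, read 1809, 2743 and 3579 in WT and 3283, 3353 and 3208 in KO at day 2 (0.33 ± 0.27), and 582.7 in the WT pool and 470.7 in the KO pool of day 1. Igfbp1 at day 2 read 875.2, 1119 and 866.1 in WT and 719.3, 1171 and 1110 in KO (0.05 ± 0.31). The day 1 pools of Igfbp1 read 577.8 in WT and 1298 in KO, a difference of 1.15 with no replicate. G6pc at day 2 read 2007, 1001 and 2608 in WT and 2848, 2389 and 3250 in KO (0.69 ± 0.27, adjusted p = 0.125), and its day 1 pools read 5379 in WT and 5262 in KO. In the pools, which have no replicate, 17 of the 24 genes had the sign of day 0. Tns2, called lower at both other days, was not among these 17, at 88.9 in WT and 139.0 in KO (0.56).

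**Figure D4:**
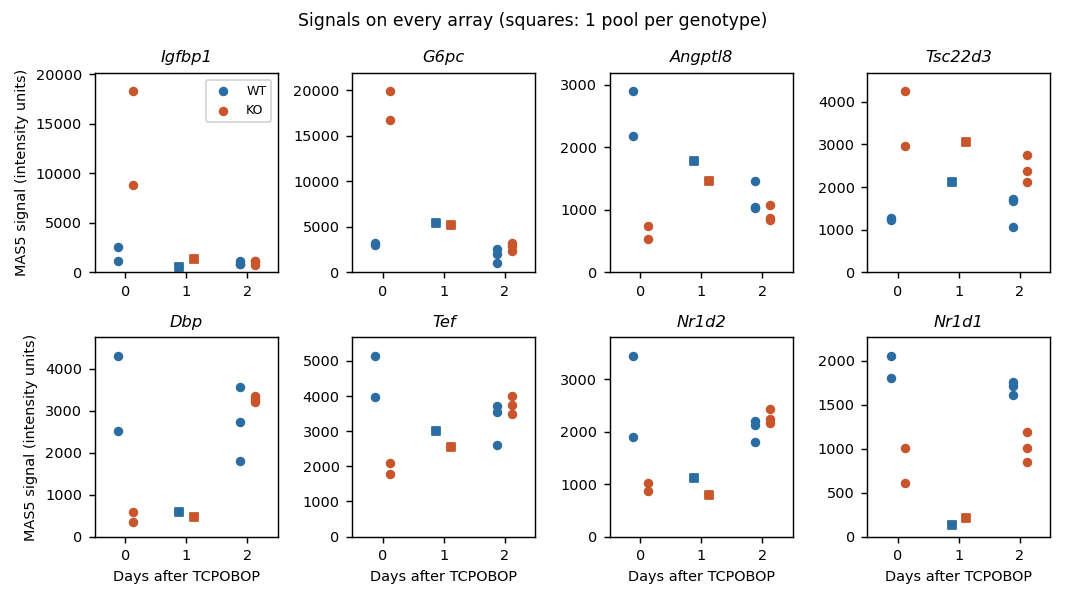
MAS5 signal on every array for 8 genes by day after TCPOBOP, blue for WT and orange for KO, with squares for the single pools of day 1. The Igfbp1 and G6pc signals of KO at day 0 (8793 to 18268 and 16744 to 19908) stand above all other arrays, and the Dbp, Tef and Nr1d2 signals of KO are lower than WT at day 0 and overlap with WT at day 2.

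**Figure D5:**
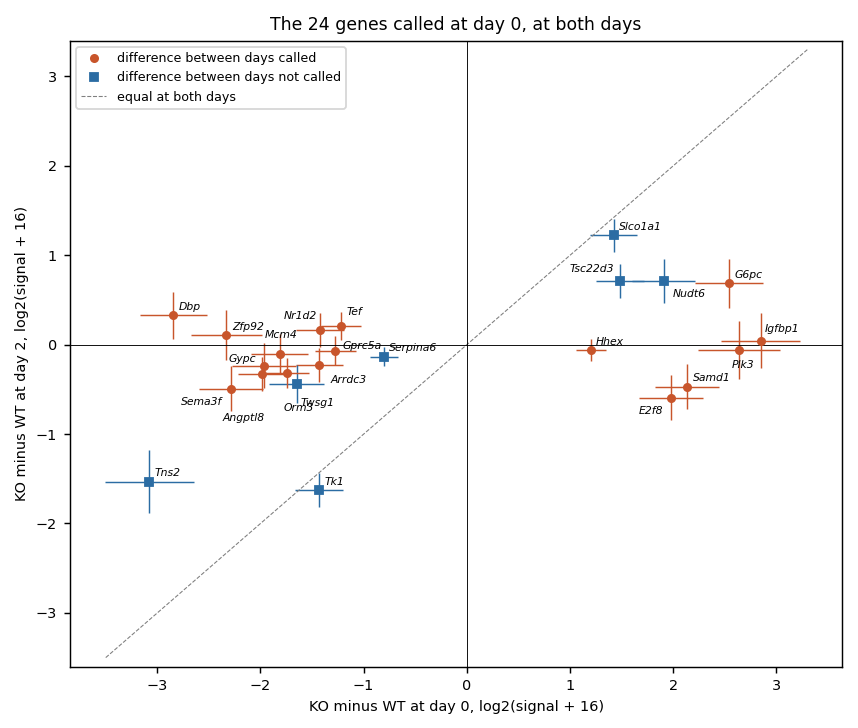
KO minus WT difference of the 24 genes called at day 0, at day 0 (horizontal) and at day 2 (vertical), with bars of 1 standard error. Orange circles mark the 17 genes whose difference between the days was called, most of them near 0 on the vertical axis, and Slco1a1 and Tk1 lie near the dashed line of equal differences.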

How the data were processed

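Signal intensities of 12 single-colour Affymetrix arrays were used as deposited by the authors, who made them with MAS5 per the submitters' processing notes, no version given; the trimmed mean of each array is 500. Of 45101 probe sets, 34958 name 1 gene in the platform's annotation and were used. Probe sets had to exceed the array median on at least 2 of 12 arrays, and the brightest one left stood for the gene (14103 of 18194 genes). Values were taken as log2(value + 16) and fitted with limma 3.58.1 in R 4.3.3: 6 group means, all 12 arrays, 6 residual degrees of freedom, moderated by robust eBayes with a trend, two-sided, Benjamini-Hochberg adjusted. The fit was tested on simulated data. The number of arrays limits the precision.

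The members, the 46 gene lists and the rule for named genes were chosen with earlier results of these data known. The rule takes a fixed panel, up to 20 called rises and falls, the called members and up to 6 further members of each list, the cell type markers, and 5 genes just outside the threshold. Lists are described by counts and medians, with no set test. The difference between days was added after seeing the data. Alternatives were quantile, median and cyclic loess normalization, pseudocounts 1 and 64, other filters, averaged or single probe sets, eBayes settings, array weights, day 0 arrays alone, a replicate block, other thresholds and leaving out each array. Samples with the same replicate number did not deviate together. Promoter windows come from RefSeq (GRCm38.p6).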

Additional observations from a re-analysis of the deposited data

Results flagged for a closer look

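For 17 of the 24 genes called at day 0, the genotype difference itself differed between day 2 and day 0 (limma, adjusted p 0.0068 to 0.0498). The change, as the day 2 difference minus the day 0 difference on the log2 scale, was negative for the genes that had been higher in KO: Igfbp1 (-2.80), Plk3 (-2.70), Samd1 (-2.61), E2f8 (-2.57), G6pc (-1.85) and Hhex (-1.26). It was positive for the genes that had been lower in KO: Dbp (3.17), Zfp92 (2.44), Sema3f (1.79), Gypc (1.73), Mcm4 (1.71), Angptl8 (1.66), Nr1d2 (1.59), Tef (1.43), Orm3 (1.43), Gprc5a (1.21) and Arrdc3 (1.20). The genes were chosen by their day 0 values, and the same day 0 arrays enter the test. Calls with a sign opposite to that of day 0 were thus favoured by the choice. Each day 2 group has 3 arrays and each day 0 group 2.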

How the results depend on the processing

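The calls at day 0 depended on the variance estimate and on single arrays. Against 24 genes called (9 higher, 15 lower), no filter gave 9 (3 higher, 6 lower) and array weights 4 (1 higher, 3 lower). The 4 day 0 arrays alone, eBayes without trend and robust, and an adjusted p under 0.01 each gave 0 (0 higher, 0 lower); in the first 2 of these limma fits 792 and 1046 genes had an unadjusted p under 0.05. An adjusted p under 0.1 gave 50 (23 higher, 27 lower). The replicate block on the 10 numbered arrays gave 8 (2 higher, 6 lower), but same-numbered arrays did not deviate together (correlations of -0.02 to 0.03). Leaving out 1 array gave 7 to 134 calls (6 to 27 higher and 1 to 107 lower); the cause was not tested. Quantile normalization kept 22, cyclic loess 23 and median centring 21 of the 24 genes. Averaging the kept probe sets of each gene kept 17, and lost Mcm4, Nr1d2, Nudt6, Slco1a1, Tef, Tsc22d3 and Twsg1. The calls of those lost genes thus rested on the choice of the brightest probe set. The 24 genes kept their direction in all 384 values (16 alternatives each). Where only the test changed or 1 array was left out, the direction could not turn, since their KO and WT arrays stood apart. Yap1 ranged from -0.92 to -1.06 and was not called in any (lowest adjusted p 0.0797). Of the uncalled genes named, signs turned for Alb under quantile normalization (-0.011), Arntl and Ccn1 as means of probe sets (1.36 and -0.21), Cyp2b10 under cyclic loess (-0.01), and over the fits without single arrays for Ankrd1 (from -1.28 to 0.25), Arntl (from -0.21 to 0.049), Cyp7a1 (from -1.05 to 0.27), Nr1i3 (from -0.38 to 0.12) and Per1 (from -0.48 to 0.96). The difference of Plk3, a dim gene, was 3.07 with a pseudocount of 1 and 1.93 with 64.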
